A study of Homo sapiens with 58 samples.

Results

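Apolipoproteins are the proteins that wrap the fat particles carried in blood. The 9 genes described here are APOA1, APOA2, APOB, APOC1, APOC3, APOE, APOH, APOM and MTTP, taken by name as the apolipoproteins and the lipid transfer protein that a liver cell uses to build and secrete such particles. They are 9 of the 60675 gene identifiers in the count table. All 9 passed the filter on low values, which asked for a level of 1 CPM (counts scaled to library size) or more in 3 or more libraries and left 13945 genes for testing.

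The series measured how extracts of herbal medicines change the RNA of HepG2, an established human hepatocellular carcinoma line that keeps many secretory traits of liver cells. RNA was taken after 24 h, and 58 libraries in 24 groups were used. The vehicle group received DMSO alone (n = 3), at 0.1% by the sample labels and 2% by the series text. Sayeok-tang and Bojungikgi-tang, both formulas of several herbs, were given as water extracts, and all other extracts were made with 70% ethanol. These came from fresh ginger (Zingiberis Rhizoma Recens), Zizyphi Fructus, Coptidis Rhizoma, Scutellariae Radix, Pinelliae Tuber and dried ginger (Zingiberis Rhizoma). The high, medium and low doses were 500, 100 and 20 μg/mL, except for Coptidis Rhizoma, whose medium and low doses were 56 and 11.2 μg/mL. Each group had 3 libraries, apart from the 3 Bojungikgi-tang groups and high-dose dried ginger with 2 each, and the Coptidis Rhizoma and Zizyphi Fructus groups with 1 each. The labels number the replicates but do not say whether they were separate cultures, so each p-value measures only the spread between these samples, which may be technical. Sample names of the vehicle start with C1, those of the formulas with 8, those of the gingers with 9, those of Pinelliae Tuber and Scutellariae Radix with 10, and the rest with 11. What the prefix stands for is not given in the sources used here. Prefix and treatment cannot be told apart in any comparison with the vehicle, while the high and low doses of an extract always share a prefix.

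Lipoprotein assembly in the liver starts when the microsomal triglyceride transfer protein, encoded by MTTP, loads lipid onto apolipoprotein B, the large structural protein of very-low-density and low-density lipoproteins (VLDL and LDL). APOA1 and APOA2 encode the main proteins of high-density lipoprotein (HDL), and APOM encodes a lipocalin that rides mainly on HDL and carries sphingosine-1-phosphate. APOC1, APOC3 and APOE encode small exchangeable apolipoproteins, of which APOC3 slows the lipolysis and clearance of triglyceride-rich particles and APOE is a ligand of lipoprotein receptors. APOH, or beta-2-glycoprotein I, is an abundant plasma protein that binds anionic phospholipids. HNF4A, FXR (NR1H4) and the FOXA and C/EBP factors are well-known regulators of these genes in hepatocytes.

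The genes lie at 7 places in the genome (GRCh38, GENCODE release 29), and all are protein-coding. APOA1 (chr11:116835751-116837950, minus strand) and APOC3 (chr11:116829706-116833072, plus strand) belong to 1 gene cluster, which also holds APOA4 and APOA5. APOE (chr19:44905754-44909393) and APOC1 (chr19:44914247-44919349), both on the plus strand, belong to another, with APOC2. The others stand alone: APOA2 (chr1:161222292-161223631), APOB (chr2:21001429-21044073) and APOH (chr17:66212033-66256525) on the minus strand, and APOM (chr6:31652416-31658210) and MTTP (chr4:99563761-99623999) on the plus strand. The intervals span the whole gene, exons and introns together.

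Promoter windows of 250 bases before to 50 after a transcript start were read from RefSeq (GRCh38.p14) for the 6 members in that table, with 9 windows in all, since APOE and MTTP have several. APOA1, APOB and APOC3 were not among them. The 250 bases before the start are shown for APOH, which was lower at every tested high dose, and for APOA2 and APOM, which were higher at several of them. Each is printed 5′ to 3′ in the direction of the gene, with motif matches in capitals.
APOH, chr17:66229416-66229665, minus strand: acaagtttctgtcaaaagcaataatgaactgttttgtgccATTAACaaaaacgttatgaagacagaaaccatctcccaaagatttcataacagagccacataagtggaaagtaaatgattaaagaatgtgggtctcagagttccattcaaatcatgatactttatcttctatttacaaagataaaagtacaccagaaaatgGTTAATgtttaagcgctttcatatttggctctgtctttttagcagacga
APOA2, chr1:161223629-161223878, minus strand: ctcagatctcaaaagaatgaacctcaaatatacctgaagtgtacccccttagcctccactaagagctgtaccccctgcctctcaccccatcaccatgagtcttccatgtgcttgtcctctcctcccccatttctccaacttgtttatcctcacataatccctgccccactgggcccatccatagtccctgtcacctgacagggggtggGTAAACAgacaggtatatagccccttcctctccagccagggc
APOM, chr6:31655644-31655893, plus strand: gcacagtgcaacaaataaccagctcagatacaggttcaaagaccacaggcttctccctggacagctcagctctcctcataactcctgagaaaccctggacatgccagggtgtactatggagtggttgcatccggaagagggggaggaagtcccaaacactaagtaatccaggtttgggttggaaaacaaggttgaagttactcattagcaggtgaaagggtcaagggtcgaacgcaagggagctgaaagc
Both strands were searched for the TATA box (TATAAA), the nuclear receptor half-site (AGGTCA), the letters GTTAAT, the forkhead motif (TGTTTAC), the AP-1 motif (TGACTCA), the AhR core (GCGTG), the HIF core (ACGTG) and the CCAAT box (CCAAT). The cores of AhR and HIF differ in their leading letter alone. In the APOH window GTTAAT matched at both -49, on the gene's strand, and -210, on the other, counting from the transcript start; 6.88% of the 35116 RefSeq windows of this length hold that motif at least once. TGACTCA, present in 4.95% of windows, matched at position 24 after the APOH start, outside the printed stretch. The APOA2 window held TGTTTAC on the opposite strand from -42, a motif found in 3.42% of windows. None of the 8 motifs was in the APOM window. MTTP had matches to the nuclear receptor half-site, the TATA box and the CCAAT box in 1 window and to the AhR core in another. The APOC1 window held the HIF core, and APOE windows held the CCAAT box. These are matches of letters and were not tested as binding sites.

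Depth ran from 22143845 to 31859981 counts per library, and from 24077535 to 26409029 in the vehicle. Liver markers were present: all 8 hepatocyte genes checked passed the filter, with ALB at 10323 and AFP at 3930 CPM in the vehicle. PTPRC (leukocytes), COL1A2 and DCN (fibroblasts) and ADIPOQ (adipocytes) had no count in any library, but LYZ (1327 CPM) and VIL1 (380 CPM), listed as markers of macrophages and intestine, were well expressed in the vehicle cells. Of 5 leukocyte and macrophage genes 3 were tested, with a summed level of 1326 to 1406 CPM in the vehicle and 1190 to 2374 over all libraries, nearly all of it LYZ. Of 6 intestinal genes 3 were tested (380 to 389 CPM in the vehicle, 215 to 389 over all libraries), and the fibroblast, endothelial and adipocyte lists summed to at most 24.2, 5.08 and 1.36 CPM in any library. The summed level of the 8 hepatocyte genes was 23704 to 25438 CPM in the vehicle. It was 18964 to 19316 at high-dose Scutellariae Radix, 19267 to 19768 at high-dose dried ginger, 20850 to 21345 at high-dose Sayeok-tang and 23006 to 23285 at high-dose fresh ginger. With high-dose Bojungikgi-tang it was 23298 to 23378 and with Pinelliae Tuber 23297 to 24234. In bulk RNA, fewer cells of a kind and less RNA per cell cannot be told apart, and the part of a general fall of hepatocyte transcripts in the results below was not tested. In earlier work on these data 3 libraries had stood apart, namely low-dose Scutellariae Radix replicate 3, low-dose dried ginger replicate 3 and the low-dose Zizyphi Fructus library, and all tests were also run without them.

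Together the 9 genes held 2.31% ± 0.0994 (SD, n = 3) of all counts in the vehicle. Per kilobase of exon, the vehicle level was highest for APOA2, at 1914 ± 173 CPM/kb (SD, n = 3). Then came APOB (1181 ± 76.3), APOH (985 ± 37.6), APOA1 (833 ± 22.4), APOE (296 ± 14), APOC1 (88.2 ± 6.39), APOC3 (58.7 ± 6.54), APOM (35.4 ± 3.55) and MTTP (17 ± 0.31). No 2 neighbours in this order overlapped in the vehicle libraries. On the same scale APOA2, APOB, APOH and APOA1 were 17th, 21st, 25th and 28th of 13876 genes, and MTTP was 2530th. All levels below are CPM per gene, which do not compare genes of different length, and all differences are log2 fold changes.

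**Figure D1:**
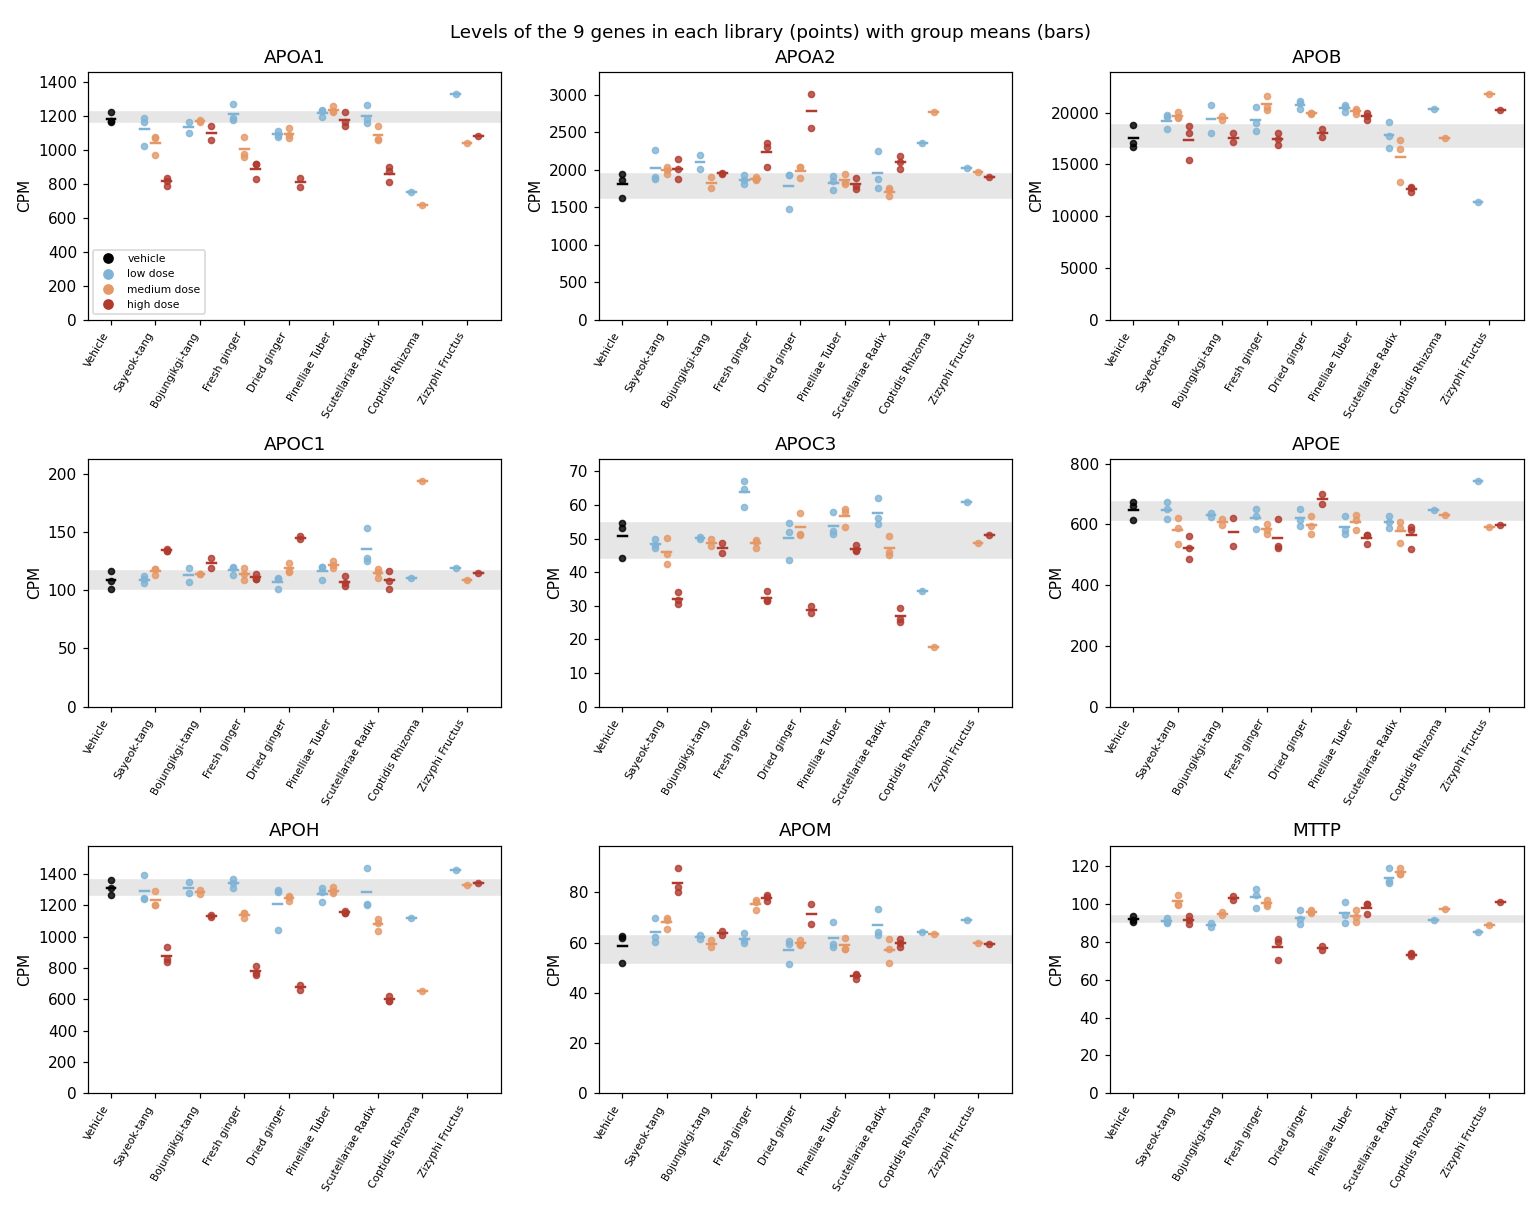
Level of each gene in CPM (vertical axes, from 0) in every library (points) with the mean of each group (short bars), by extract and colored by dose; the grey band spans the 3 vehicle libraries. APOH at the high dose of Scutellariae Radix lies at 590 to 624 CPM against 1264 to 1364 in the vehicle, and APOB there lies below every vehicle library.

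At 5 of the 6 tested high doses some members were called higher and others lower, and in Pinelliae Tuber all called members were lower. A gene is called changed where edgeR's quasi-likelihood test gave a Benjamini-Hochberg adjusted p under 0.05. Sayeok-tang changed 6 of the 9 members, 2 higher and 4 lower, where 40.2% of all tested genes were called (20.3% higher and 19.9% lower). Fresh ginger raised 2 and lowered 5, against 47.9% of all genes (24.3% higher, 23.6% lower). Dried ginger raised 3 and lowered 4, against 46.1% (23.3% higher, 22.8% lower). Scutellariae Radix raised 1 and lowered 6, against 56.7% (28.7% higher, 28.1% lower). Bojungikgi-tang raised 1 and lowered 1, against 4.55% (2.24% higher, 2.31% lower). Pinelliae Tuber lowered 3, against 15.7% (9.14% higher, 6.57% lower). With shares of all genes this large at several high doses, the number of members called says little by itself, and the directions and sizes follow gene by gene. All 18 comparisons with the vehicle share its 3 libraries, so values from different extracts are given side by side only.

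**Figure D2:**
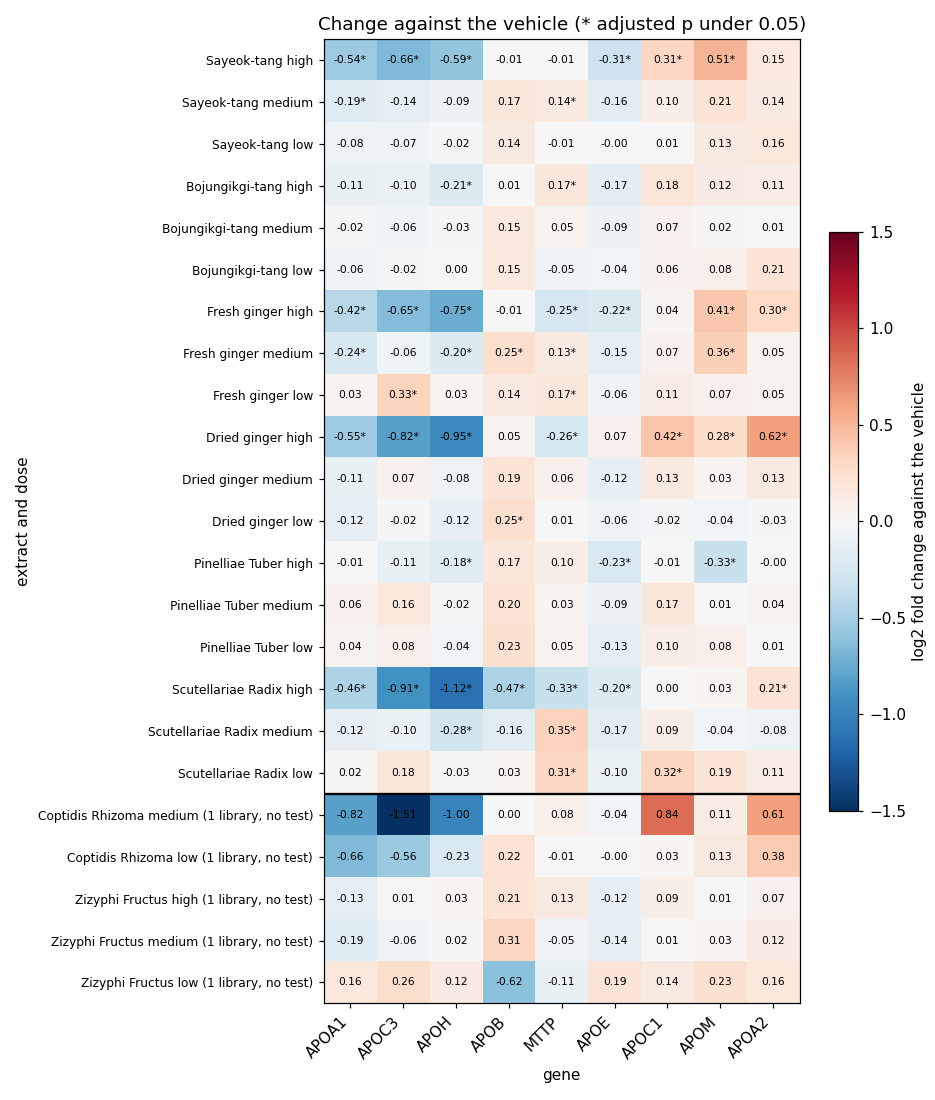
Log2 fold change against the vehicle of the 9 genes (columns) in each extract and dose (rows), with an asterisk where the adjusted p was under 0.05; the 5 rows below the line are single libraries without a test. Blue cells in the APOA1, APOC3 and APOH columns mark the high doses of Sayeok-tang, both gingers and Scutellariae Radix, and APOA2 is red in high-dose dried ginger (0.62).

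Among the HDL genes, APOA1 fell and APOA2 rose or stayed uncalled. APOA1 was at 1223, 1165 and 1172 CPM in the 3 vehicle libraries. It was at 835, 791 and 821 CPM with high-dose Sayeok-tang, 920, 831 and 918 with fresh ginger, 785 and 835 with dried ginger, and 876, 811 and 900 with Scutellariae Radix. None of these 11 libraries reached the lowest vehicle value. The log2 fold changes were -0.54 ± 0.05 (SE, adjusted p = 3.3e-12), -0.42 ± 0.05 (2.2e-09), -0.55 ± 0.057 (4.2e-11) and -0.46 ± 0.05 (1e-10), in that order. In high-dose Bojungikgi-tang (1140 and 1062 CPM; -0.11, adjusted p = 0.32) and Pinelliae Tuber (1168, 1144 and 1226 CPM; -0.01, adjusted p = 0.94) APOA1 was not called.

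The lower APOA1 level extended to the medium dose in 2 extracts. In fresh ginger it was 979, 957 and 1077 CPM (-0.24 ± 0.05, adjusted p = 0.00065), below every vehicle library, where 11.3% of all genes were called. In Sayeok-tang it was 974, 1077 and 1070 CPM (-0.19 ± 0.05, adjusted p = 0.021), with 4.22% of all genes called. The Sayeok-tang call was lost without its replicate 1 (adjusted p = 0.18), without vehicle replicate 1 (0.11) and without vehicle replicate 3 (0.058). No low dose changed APOA1, with fold changes from -0.12 to 0.04.

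APOA2, on another chromosome, moved the other way. The vehicle libraries held 1940, 1626 and 1860 CPM. High-dose dried ginger held 3002 and 2559 CPM, a rise of 0.62 ± 0.088 (SE, adjusted p = 9.2e-08), and the fresh ginger libraries held 2351, 2306 and 2035 CPM (0.30 ± 0.079, adjusted p = 0.0015). Scutellariae Radix libraries held 2102, 2005 and 2177 CPM (0.21 ± 0.079, adjusted p = 0.021). All 8 of these libraries were above the highest vehicle library. The Scutellariae Radix call was lost without its replicate 3 (adjusted p = 0.08) or vehicle replicate 2 (0.17), the lowest of the 3 vehicle values. High-dose Sayeok-tang (2142, 2012 and 1877 CPM) was 0.15 above the vehicle and not called (adjusted p = 0.12), though leaving out the 3 libraries that stood apart brought it to 0.037 and dropping the filter to 0.00063. APOA2 was not called at any medium or low dose.

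APOM rose in 3 extracts and fell in 1. Vehicle libraries were at 61.9, 52.0 and 62.5 CPM. With high-dose Sayeok-tang the level was 89.7, 80.0 and 82.1 CPM, a rise of 0.51 ± 0.065 (SE, adjusted p = 9.6e-09). Fresh ginger gave 78.1, 79.0 and 76.4 CPM (0.41 ± 0.065, adjusted p = 1.1e-06) and dried ginger 75.4 and 67.3 CPM (0.28 ± 0.073, adjusted p = 0.0015). Pinelliae Tuber gave 45.4, 47.6 and 47.1 CPM, all below the vehicle (-0.33 ± 0.067, adjusted p = 0.00041). Fresh ginger raised APOM already at the medium dose, to 77.1, 76.2 and 73.1 CPM (0.36 ± 0.066, adjusted p = 8.6e-05), close to its high-dose level. High-dose Scutellariae Radix, which changed more genes than any other group, left APOM uncalled at 59.8, 58.1 and 61.6 CPM (0.03, adjusted p = 0.75). The dried ginger call was lost without its replicate 1 (0.20, adjusted p = 0.09).

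For the genes of VLDL assembly, APOB fell in Scutellariae Radix alone among the 6 high doses. APOB was the member with the most counts, at 17108, 18787 and 16633 CPM in the vehicle. High-dose Scutellariae Radix held 12713, 12854 and 12326 CPM, a fall of 0.47 ± 0.062 on the log2 scale (adjusted p = 1.2e-08). With that fall the 9 genes together held 1.75% ± 0.0156 (SD, n = 3) of the counts. The other 5 high doses lay between 15419 and 19961 CPM, with fold changes from -0.01 to 0.17 and no call. High-dose Pinelliae Tuber, at 19321, 19961 and 19642 CPM (0.17, adjusted p = 0.062), was above every vehicle library. Its APOB was called higher without the filter (0.0011), with the compared groups only (0.024), with a replicate block (0.048) and without vehicle replicate 2 (0.024). Medium-dose Scutellariae Radix gave 16440, 17313 and 13281 CPM (-0.16, adjusted p = 0.067), in a comparison where 18.3% of all genes were called. That value passed the threshold without replicate 2 (-0.24, adjusted p = 0.0098), without the 3 libraries that stood apart (0.037), with DESeq2 (0.033) and without the filter (0.0017).

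Low and medium doses of the other 5 tested extracts sat above the vehicle for APOB. Their fold changes ran from 0.14 to 0.25, but only 2 were called. Medium-dose fresh ginger, at 20270, 21599 and 20499 CPM, was 0.25 ± 0.062 higher (adjusted p = 0.0051), and low-dose dried ginger, at 20931, 20321 and 21076 CPM, was 0.25 ± 0.062 higher (adjusted p = 0.023; 2.12% of all genes called). The fresh ginger call was lost without vehicle replicate 3 (adjusted p = 0.051). The dried ginger call was lost without its own replicate 3 (0.13), vehicle replicate 1 (0.13) or vehicle replicate 3 (0.17), without the 3 libraries that stood apart (0.13) and in a fit of the compared groups only (0.17).

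With 14828 bases of exon, APOB is a very long transcript, and the balance of long and short transcripts differed between libraries. This was described, after the data had been seen, as the median log2 ratio to the vehicle mean of 1230 genes of at least 10000 exon bases, minus that of 666 genes under 2000 bases. In the vehicle libraries it was -0.04, 0.09 and -0.04, and the vehicle library at 0.09 was the one with the highest APOB level. The low-dose Zizyphi Fructus library, at -0.25, had the lowest APOB level of all 58, 11365 CPM. Medium-dose Scutellariae Radix replicate 3, with the lowest APOB of its group, was at -0.10, and low-dose dried ginger replicate 3 was at 0.21. The 3 high-dose Scutellariae Radix libraries were at 0.05, 0.13 and -0.03, against APOB levels of 12713, 12854 and 12326 CPM. Low-dose Scutellariae Radix replicate 3, at -0.23, held 16630 CPM against 19099 and 17729 in its replicates. The part of this balance in the APOB differences was not tested.

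**Figure D3:**
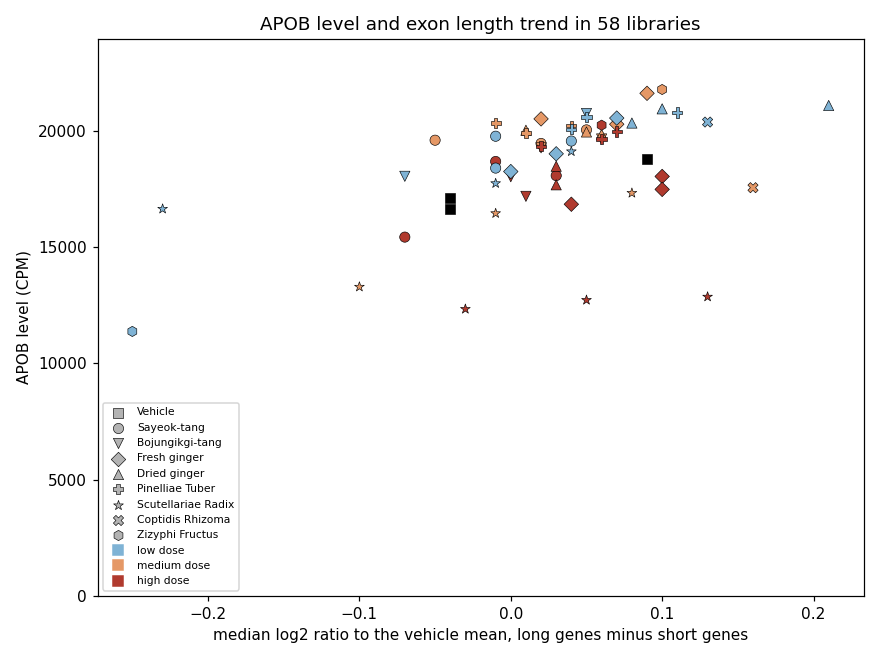
APOB level in CPM (vertical axis, from 0) against the difference of median log2 ratios between long and short genes (horizontal axis) in the 58 libraries; shapes are extracts, colors are doses and the vehicle is black. The 3 high-dose Scutellariae Radix libraries sit at 12326 to 12854 CPM, from -0.03 to 0.13 on the horizontal axis, and the low-dose Zizyphi Fructus library sits at its left end.

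MTTP, which loads lipid onto apolipoprotein B, changed in opposite directions at different doses of Scutellariae Radix. The vehicle was at 91.6, 90.4 and 93.8 CPM. The low dose gave 112, 119 and 111 CPM (0.31 ± 0.04, adjusted p = 4.1e-07; 10.3% of all genes called) and the medium dose 116, 119 and 116 CPM (0.35 ± 0.04, adjusted p = 6.1e-09). The high dose gave 72.4, 73.6 and 74.0 CPM (-0.33 ± 0.041, adjusted p = 4.4e-09). All 3 doses were clear of the vehicle range, and between the high and the low dose the difference was -0.64 ± 0.041 (adjusted p = 5.8e-18), with 55.7% of all genes called.

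With fresh ginger, too, MTTP was above the vehicle at the low and medium doses and below it at the high dose. It held 98.1, 105 and 108 CPM at the low dose (0.17 ± 0.04, adjusted p = 0.028; 0.602% of all genes called), 100, 102 and 99 at the medium dose (0.13 ± 0.041, adjusted p = 0.035) and 70.5, 79.9 and 81.4 at the high dose (-0.25 ± 0.041, adjusted p = 1.9e-06). High-dose dried ginger was lower too (77.7 and 75.8 CPM; -0.26 ± 0.047, adjusted p = 8.8e-06). Sayeok-tang raised MTTP at the medium dose (100, 99.7 and 105 CPM; 0.14 ± 0.041, adjusted p = 0.032) and Bojungikgi-tang at the high dose (102 and 104 CPM; 0.17 ± 0.045, adjusted p = 0.024). Without the filter the calls were lost in medium-dose fresh ginger (adjusted p = 0.13), medium-dose Sayeok-tang (0.08) and high-dose Bojungikgi-tang (0.071). Each of the 4 rises, that of low-dose fresh ginger among them, also lost its call when single libraries were left out. For medium-dose fresh ginger this held for each of the 6 libraries compared (adjusted p up to 0.12, without vehicle replicate 2), and for Sayeok-tang for each except its own replicate 2 (up to 0.16, without its replicate 3). For low-dose fresh ginger it held for its replicates 2 (0.16) and 3 (0.22) and vehicle replicates 1 and 2 (0.12 each), and for Bojungikgi-tang for its replicates 2 (0.12) and 3 (0.17) and vehicle replicates 1 (0.063) and 2 (0.083).

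Among the exchangeable apolipoproteins APOC3, the inhibitor of triglyceride clearance, fell most. The vehicle libraries held 53.3, 44.3 and 54.7 CPM. High-dose Scutellariae Radix held 29.2, 25.3 and 26.2 CPM, a fall of 0.91 ± 0.077 on the log2 scale (adjusted p = 4.4e-14). Dried ginger held 29.8 and 27.8 (-0.82 ± 0.088, adjusted p = 1.1e-10), Sayeok-tang 34.1, 31.8 and 30.5 (-0.66 ± 0.075, adjusted p = 6.8e-10) and fresh ginger 34.3, 31.3 and 31.7 CPM (-0.65 ± 0.075, adjusted p = 7.9e-10). These 11 libraries all lay below the lowest vehicle library. High-dose Bojungikgi-tang (48.8 and 45.8 CPM) and Pinelliae Tuber (48.0, 46.4 and 46.6 CPM) stayed within the vehicle range. Low-dose fresh ginger was above it, at 59.5, 64.7 and 67.1 CPM (0.33 ± 0.071, adjusted p = 0.012). That call was lost without its replicate 2 (0.32, adjusted p = 0.092), its replicate 3 (0.29, 0.13) or the low vehicle replicate 2 (0.24, 0.16). In these fits 17, 43 and 45 of all tested genes were called, in that order, against 84 with every library.

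APOC1 rose at the high dose of 2 extracts. From 117, 101 and 108 CPM in the vehicle it reached 147 and 144 with high-dose dried ginger (0.42 ± 0.063, adjusted p = 2.7e-07) and 136, 134 and 134 with high-dose Sayeok-tang (0.31 ± 0.057, adjusted p = 1.4e-05). Both groups were above every vehicle library. In fresh ginger (110, 110 and 114 CPM) and Scutellariae Radix (108, 101 and 117 CPM) the high dose gave 0.04 and 0.00. Low-dose Scutellariae Radix held 128, 125 and 154 CPM (0.32 ± 0.057, adjusted p = 9.8e-05), where 154 belonged to the replicate that stood apart. The fit of the compared groups only gave an adjusted p of 0.071 for that rise.

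APOE varied least of the 9. Over the 24 group means its SD was 0.11 on the log2 scale, against 0.43 for APOC3, and its pooled SD within groups was 0.083. From 660, 614 and 672 CPM in the vehicle it fell to 563, 521 and 486 with high-dose Sayeok-tang (-0.31 ± 0.063, adjusted p = 7.5e-05). It was also lower with Pinelliae Tuber (564, 535 and 565 CPM; -0.23 ± 0.062, adjusted p = 0.0096), fresh ginger (617, 522 and 528; -0.22 ± 0.062, adjusted p = 0.0027) and Scutellariae Radix (583, 519 and 591; -0.20 ± 0.062, adjusted p = 0.0054). The fresh ginger group overlapped the vehicle. Without Pinelliae Tuber replicate 2 or vehicle replicate 3 the Pinelliae Tuber call was lost (adjusted p = 0.058 and 0.063), as was the Scutellariae Radix call without its replicate 2 (0.07). High-dose dried ginger held 666 and 699 CPM (0.07, adjusted p = 0.42).

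APOH fell at all 6 tested high doses, and in Scutellariae Radix by more than any other member. The vehicle libraries held 1310, 1264 and 1364 CPM. High-dose Scutellariae Radix held 624, 590 and 592 CPM, a 2.18-fold fall (-1.12 ± 0.057, adjusted p = 1.8e-21). Dried ginger held 692 and 663 CPM (-0.95 ± 0.065, adjusted p = 1.1e-16), fresh ginger 768, 815 and 758 (-0.75 ± 0.057, adjusted p = 2.9e-15) and Sayeok-tang 933, 855 and 837 (-0.59 ± 0.057, adjusted p = 9.9e-12). Bojungikgi-tang (1127 and 1138 CPM; -0.21 ± 0.063, adjusted p = 0.041) and Pinelliae Tuber (1151, 1163 and 1155 CPM; -0.18 ± 0.056, adjusted p = 0.021) gave small falls with no library inside the vehicle range. The Bojungikgi-tang call was lost without vehicle replicate 1 (-0.21, adjusted p = 0.081) or 3 (-0.18, 0.17). With its own replicate 2 or 3 left out, 1 library remained, and the fold change was -0.21 or -0.22. The Pinelliae Tuber call was lost without any 1 of its 3 libraries (-0.18 to -0.19, adjusted p = 0.051 to 0.061). It was also lost without vehicle replicate 1 (-0.18, 0.052) or 3 (-0.15, 0.12).

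At the medium dose APOH was lower in Scutellariae Radix (1111, 1038 and 1091 CPM; -0.28 ± 0.057, adjusted p = 0.00023) and in fresh ginger (1120, 1150 and 1154 CPM; -0.20 ± 0.056, adjusted p = 0.013). The fresh ginger call was lost without its replicate 1 (adjusted p = 0.062) or vehicle replicate 3 (0.086). No low dose changed APOH, with fold changes from -0.12 to 0.03.

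In the comparisons not yet named, no member was called. These were the low dose of Sayeok-tang (0.0574% of all genes called), the medium and low doses of Bojungikgi-tang (0.0645% and 0%), the medium dose of dried ginger (1.45%) and the medium and low doses of Pinelliae Tuber (0.287% and 0.272%). By edgeR's unadjusted p under 0.05 the members counted there were 1, 1, 2, 3, 3 and 2, in that order. APOB was among them each time, and all of these comparisons share the same vehicle libraries. The share of all genes at the unadjusted threshold was not counted, so these numbers are descriptions only. DESeq2 called APOB in low-dose Pinelliae Tuber (adjusted p = 0.029) and 0 members in the other 5.

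High and low doses of 1 extract share a sample prefix and leave out the vehicle. In this contrast, Sayeok-tang changed 6 members (37.6% of all genes called), fresh ginger 7 (47.6%), dried ginger 8 (47.4%) and Scutellariae Radix 7 (55.7%). Bojungikgi-tang (1.69%) and Pinelliae Tuber (10.1%) changed 1 each. In the first 4 extracts APOA1 fell, with differences from -0.48 in Scutellariae Radix to -0.43 in dried ginger. APOC3 differences ran from -1.10 in Scutellariae Radix to -0.59 in Sayeok-tang, and those of APOH from -1.09 to -0.56 in the same 2 extracts. APOA2 rose in dried ginger (0.65 ± 0.088, adjusted p = 3.5e-08) and fresh ginger (0.26 ± 0.079, adjusted p = 0.0066). In Sayeok-tang the high and low doses held nearly the same APOA2 level (-0.00 ± 0.079).

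APOM changed in 5 extracts in this contrast. It rose in Sayeok-tang (0.39 ± 0.064), fresh ginger (0.34 ± 0.065) and dried ginger (0.32 ± 0.073) and fell in Pinelliae Tuber and Scutellariae Radix. MTTP fell in fresh ginger (-0.42 ± 0.041) and dried ginger (-0.27 ± 0.046) as well as in Scutellariae Radix, and APOE fell in Sayeok-tang (-0.31 ± 0.063). APOB fell by 0.50 ± 0.062 on the log2 scale in Scutellariae Radix (adjusted p = 3.5e-09), and by 0.20 ± 0.07 in dried ginger (adjusted p = 0.015), a call lost without high-dose replicate 2 (0.13). APOC1 rose in dried ginger (0.44 ± 0.063) and Sayeok-tang (0.30 ± 0.057) and fell in Scutellariae Radix (-0.32 ± 0.056). The single change in Pinelliae Tuber was APOM (-0.41 ± 0.067, adjusted p = 2.7e-05), and in Bojungikgi-tang it was MTTP, from 87.7 and 89.8 to 102 and 104 CPM (0.22 ± 0.05, adjusted p = 0.01). The MTTP call ended whichever of the 4 libraries was left out, with adjusted p from 0.061 without high-dose replicate 2 to 0.12 without low-dose replicate 2. It also ended in the fit of the compared groups only (0.097). For Scutellariae Radix the APOM fall of 0.16 (adjusted p = 0.034) lost its call without low-dose replicate 3 (-0.09, adjusted p = 0.29). It also lost it without high-dose replicate 1 (-0.16, 0.069) or 2 (-0.14, 0.11). The APOE fall of 0.16 in fresh ginger (adjusted p = 0.031) lost its call without high-dose replicate 2 (0.17) or 3 (0.15). It also lost it without low-dose replicate 1 (0.15) or 3 (0.075), and with RLE scaling (0.052). In these fits the difference was -0.12 to -0.15. Without low-dose Scutellariae Radix replicate 3 the APOA2 difference in that extract was 0.21 (adjusted p = 0.031), and with it 0.10 (adjusted p = 0.31).

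**Figure D4:**
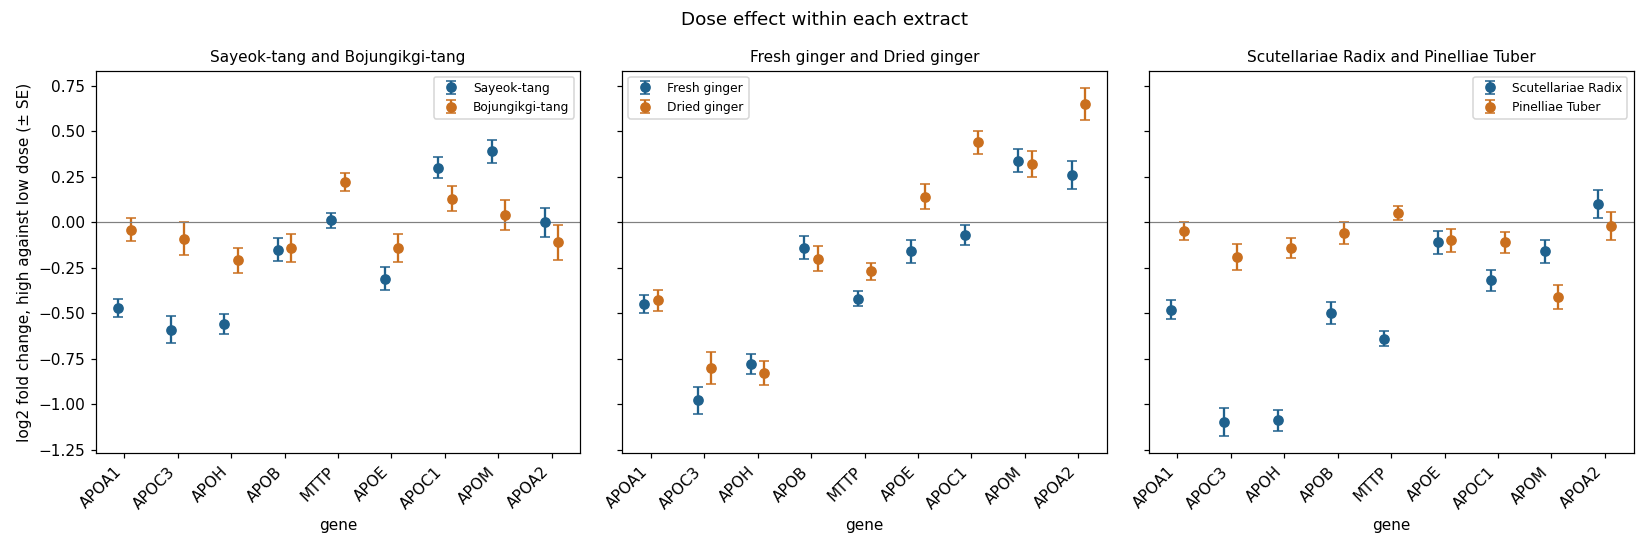
Log2 fold change between the high and low dose of each extract (vertical axis, points with SE) for the 9 genes, with 1 panel for each pair of extracts that was compared. In the right panel APOH and APOC3 lie near -1.1 in Scutellariae Radix and between -0.2 and 0 in Pinelliae Tuber; in the middle panel APOC1 separates dried from fresh ginger.

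At the high dose, 3 pairs of extracts were compared, all at 500 μg/mL, each pair with libraries of 1 prefix. Bojungikgi-tang and Sayeok-tang, the 2 water extracts, differed in 5 members (26.2% of all genes called). Bojungikgi-tang held more APOA1 (0.43 ± 0.056, adjusted p = 4.1e-08), APOC3 (0.56 ± 0.084, adjusted p = 9.6e-07), APOH (0.37 ± 0.063, adjusted p = 9e-06) and MTTP (0.17 ± 0.045, adjusted p = 0.0033) and less APOM (-0.39 ± 0.073, adjusted p = 3.8e-05). The MTTP difference reached an adjusted p of 0.05 without Bojungikgi-tang high-dose replicate 3. APOA2, APOB and APOE were not called, with differences of -0.05 ± 0.089, 0.02 ± 0.069 and 0.14 ± 0.07.

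Dried and fresh ginger, 2 preparations of ginger rhizome, differed in 4 members (23.5% of all genes called). Dried ginger held more APOC1 (0.39 ± 0.063, adjusted p = 5e-06), APOE (0.30 ± 0.069, adjusted p = 0.0011) and APOA2 (0.32 ± 0.088, adjusted p = 0.0059) and less APOH (-0.20 ± 0.064, adjusted p = 0.015). Without dried ginger replicate 1, which leaves 1 dried ginger library, the APOA2 difference was 0.20. That library, at 2559 CPM, was above the fresh ginger libraries (2035 to 2351 CPM). The APOH call was lost without fresh ginger replicate 2 (-0.17, adjusted p = 0.073), and without dried ginger replicate 2 the APOH difference was -0.17. For APOA1, APOB and MTTP the differences were -0.14 ± 0.057, 0.05 ± 0.069 and -0.01 ± 0.047 and not called.

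Pinelliae Tuber and Scutellariae Radix differed in 7 members, in a comparison where 55.9% of all genes were called. The Scutellariae Radix cells held less APOH (0.94 ± 0.057 on the log2 scale in favour of Pinelliae Tuber, adjusted p = 9.8e-19), APOC3 (0.80 ± 0.077), APOB (0.64 ± 0.062), APOA1 (0.45 ± 0.05) and MTTP (0.42 ± 0.041). They held more APOM (-0.36 ± 0.067) and APOA2 (-0.21 ± 0.079, adjusted p = 0.02). The APOA2 call was lost without Pinelliae Tuber replicate 2 (-0.21, adjusted p = 0.051) or 3 (-0.19, 0.073) or Scutellariae Radix replicate 3 (-0.19, 0.076). APOC1 and APOE gave -0.02 each and were not called.

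The test of the dose effect itself compared the high-against-low difference of 1 extract with that of its partner. For Pinelliae Tuber and Scutellariae Radix it was called for 7 members, with 44.4% of all genes called. Among them were APOH (0.95 ± 0.08, adjusted p = 1.2e-13), APOC3 (0.90 ± 0.1, adjusted p = 9.7e-10) and MTTP (0.69 ± 0.057, adjusted p = 1.1e-13). For the formulas it was called for 5 members (13.9% of all genes) and for the gingers for 3 (15.9%), namely APOA2, APOC1 and APOE. In APOA1, APOB, APOH and APOM the dose effects of the gingers differed by 0.01 ± 0.075, -0.06 ± 0.093, -0.05 ± 0.085 and -0.02 ± 0.098.

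The single libraries of Coptidis Rhizoma and Zizyphi Fructus allow no test, so only their place against the vehicle range and a fold of 1.5 are given. Medium-dose Coptidis Rhizoma had 5 members past 1.5-fold, where 21.4% of all genes were. APOC3 was at 17.8 CPM, the lowest of all 58 libraries and 2.85-fold below the vehicle mean, APOH was at 654 (2.01-fold below) and APOA1 at 674 (1.76-fold below). APOC1 was at 194 CPM (1.79-fold above), the highest of all libraries, and APOA2 at 2769 (1.53-fold above). APOB, at 17543 CPM, and APOE, at 632 CPM, were within the vehicle range.

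The low-dose Coptidis Rhizoma library had 1 member past that fold, APOA1 at 753 CPM (6.19% of all genes). APOC3, at 34.5 CPM, and APOH, at 1123 CPM, were below the vehicle range, and APOA2, at 2359 CPM, above it. Scaled to the total count alone, the median of all genes against the vehicle shifts by -0.15 in the medium-dose and -0.21 in the low-dose library, and APOA2 at the medium dose is then 0.46 above it in place of 0.61. At that scaling APOA2 is no longer past 1.5-fold at the medium dose, while APOC3 at the low dose passes it (-0.76 in place of -0.56). APOM in both libraries, MTTP at the medium dose and APOC1 at the low dose (0.03 to -0.18) change sign under it. In Zizyphi Fructus no member passed 1.5-fold at the high or medium dose (2.75% and 2.85% of all genes), and APOA1 lay below the vehicle range in both, at 1082 and 1043 CPM. The low-dose library, which was among those that stood apart, had APOB alone past 1.5-fold (3.66% of all genes). In it 7 other members were above the vehicle range and MTTP was below it. The share of all genes outside the vehicle range was not counted, so these places are descriptions only.

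Some members moved together over the 24 groups and others did not. Over the group means, APOA1 and APOC3, neighbours on chromosome 11, had a Pearson r of 0.93, APOC3 and APOH 0.92 and APOA1 and APOH 0.82. APOA1 and APOA2 had an r of -0.78. APOE and APOC1, neighbours on chromosome 19, had an r of 0.15, and APOB, APOE and APOM had at most 0.35, 0.31 and 0.41 with any other member. These are descriptions over 24 group means, the vehicle among them, that share a scaling and, in part, a prefix. The range of group means was 3.56-fold for APOC3, 2.37-fold for APOH and 1.97-fold for APOA1, and 1.42-fold for APOE. Groups of a single library set an end of each of these ranges. Medium-dose Coptidis Rhizoma was lowest for APOC3 and APOA1, and low-dose Zizyphi Fructus, which stood apart, was highest for APOA1, APOH and APOE.

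Genes whose group means were most like those of each member, by Pearson r over the 24 groups, were as follows, with 3 for each member and 2 for APOA2. For APOH these were GLRX5 (r = 0.986), RAB11FIP4 (0.979) and PECR (0.979). For APOC3 they were SDC2 (0.975), SERPINA6 (0.968), which encodes the cortisol carrier of plasma, and EFNA4 (0.964), and for APOA1 BLOC1S1 (0.952), GNPAT (0.939) and SLC44A4 (0.932). For APOB the likeness was SRRM2 (0.936), USF3 (0.890) and IQSEC1 (0.889), and for APOA2 TRNP1 (0.892) and ABTB3 (0.888). MTTP was most like MOGAT2 (0.870), an acyltransferase of triglyceride synthesis, LRP11 (0.845) and SORCS2 (0.833). APOC1 was most like WNT11 (0.862), AZGP1 (0.843) and CAPG (0.827). APOM was most like TMEM41B (0.830), a lipid scramblase of the endoplasmic reticulum, DDA1 (0.828) and UBE2A (0.795), and APOE most like HDHD3 (0.818), ZNF503-AS2 (0.814) and RAB24 (0.799).

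Other apolipoproteins and lipoprotein-bound proteins formed a list of 16 genes, 12 of them tested. Sayeok-tang raised 3 and lowered 6 (list median -0.22, all genes 0.00), fresh ginger raised 2 and lowered 5 (-0.14), dried ginger raised 4 and lowered 5 (0.01) and Scutellariae Radix raised 1 and lowered 7 (-0.31, all genes 0.01). Bojungikgi-tang lowered 1 (-0.07), and Pinelliae Tuber raised 2 and lowered 1 (-0.06). The other genes of the APOA1 cluster were lower at the same high doses. APOA5, which promotes triglyceride clearance, averaged 23.1 CPM in the vehicle and 9.79 at high-dose Scutellariae Radix (-1.23 ± 0.081, adjusted p = 1.4e-17). It was also lower in Sayeok-tang (-0.89), fresh ginger (-0.73), dried ginger (-0.62) and Pinelliae Tuber (-0.22). APOA4, a low transcript at 2.73 CPM in the vehicle, was lower in Sayeok-tang (-0.74), fresh ginger (-0.79), dried ginger (-0.67) and Scutellariae Radix (-1.27). Of the 7 genes around the cluster (BUD13, ZPR1, SIK3, PAFAH1B2, SIDT2, PCSK7 and CEP164), Sayeok-tang lowered 1 and raised 0. Scutellariae Radix raised 5 and lowered 2, with a list median of 0.15 against 0.01 for all genes; ZPR1 and SIK3 each rose by 0.44, and SIDT2 fell by 0.41. SIDT2 was also lower in Sayeok-tang (-0.17), fresh ginger (-0.28), dried ginger (-0.25) and Pinelliae Tuber (-0.22).

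On chromosome 19 the cluster did not move as 1 block. APOC2, the activator of lipoprotein lipase, was not called at any high dose, with fold changes from -0.26 to 0.35, and its reads may be split with overlapping transcripts. APOE and APOC1 moved in opposite directions in Sayeok-tang. Of 7 surrounding genes, all tested, Sayeok-tang raised 3 and lowered 1, and Scutellariae Radix raised 1 and lowered 5 (list median -0.16, all genes 0.01). BCAM, a laminin-binding adhesion protein, was lower in Sayeok-tang (-0.55), fresh ginger (-0.57), dried ginger (-1.39), Pinelliae Tuber (-0.20) and Scutellariae Radix (-0.81). RELB, an NF-kappaB subunit, was higher in fresh ginger (1.14), Scutellariae Radix (0.81), Sayeok-tang (0.62) and dried ginger (0.53).

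**Figure D5:**
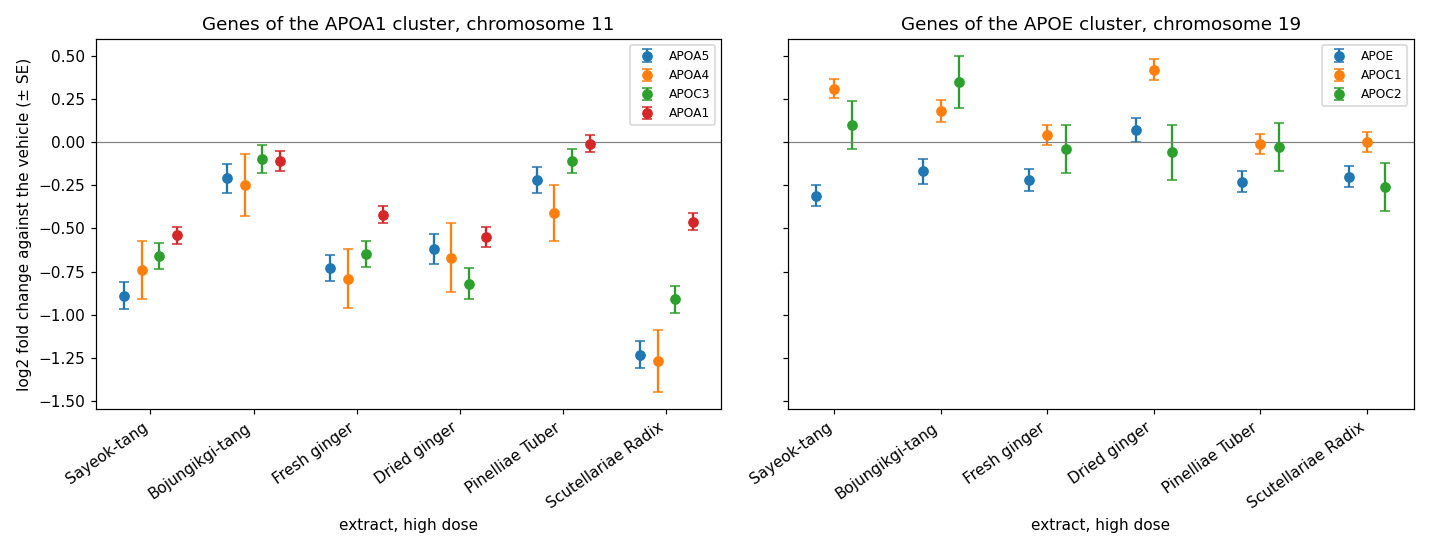
Log2 fold change against the vehicle (vertical axis, points with SE) at the high dose of 6 extracts for 4 genes of the cluster on chromosome 11 (left) and 3 genes of the cluster on chromosome 19 (right). APOA1, APOC3, APOA4 and APOA5 all lie below 0 in Sayeok-tang, both gingers and Scutellariae Radix, whereas APOE and APOC1 lie on opposite sides of 0 in Sayeok-tang.

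Counts of called genes in all of these lists are descriptions, to be read against the shares of all genes called at the same high dose. These were 19.9% lower and 20.3% higher in Sayeok-tang, 23.6% and 24.3% in fresh ginger, 22.8% and 23.3% in dried ginger, 28.1% and 28.7% in Scutellariae Radix, 6.57% and 9.14% in Pinelliae Tuber and 2.31% and 2.24% in Bojungikgi-tang. No list was tested as a set. Around MTTP and APOB, the wider list of VLDL assembly and export has 22 genes, all tested. In Scutellariae Radix 11 fell and 3 rose (list median -0.11, all genes 0.01), in fresh ginger 9 fell and 5 rose (-0.03, all genes 0.00), and in Sayeok-tang 8 fell and 4 rose (-0.06). In dried ginger 5 fell and 9 rose (0.12). The genes of the last steps of triglyceride synthesis, DGAT1 and DGAT2, had some of the larger falls. DGAT2 went from 79.3 CPM to 40.2 in dried ginger (-0.98 ± 0.055, adjusted p = 1.1e-19), to 46.1 in Sayeok-tang (-0.78), 47.3 in fresh ginger (-0.75) and 47.9 in Scutellariae Radix (-0.73). DGAT1 went from 86.9 CPM to 45.5 in fresh ginger (-0.93 ± 0.057, adjusted p = 2.1e-18), and was lower in Scutellariae Radix (-0.81), dried ginger (-0.80) and Sayeok-tang (-0.64). CIDEB, a lipid droplet protein that lipidates VLDL, was lower in Scutellariae Radix (-0.74), dried ginger (-0.58), Sayeok-tang (-0.49), fresh ginger (-0.40) and Pinelliae Tuber (-0.32). VMP1, a scramblase of the endoplasmic reticulum needed for lipoprotein export, rose by 0.70 in Scutellariae Radix, by 0.59 in dried ginger and by 0.39 in both Sayeok-tang and fresh ginger. In Bojungikgi-tang 1 of the 22 rose and 2 fell, and in Pinelliae Tuber 3 rose and 6 fell.

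Among 9 tested genes of HDL formation and remodelling, Sayeok-tang lowered 5 and raised 1 (list median -0.19; 40.2% of all genes called) and fresh ginger lowered 4 and raised 3 (-0.10; 47.9%). Dried ginger lowered 4 and raised 2 (-0.02; 46.1%), and Scutellariae Radix lowered 5 and raised 4 (-0.25; 56.7%). PDZK1, the adaptor of the HDL receptor, fell from 25.9 CPM to 12 in Scutellariae Radix (-1.11), 12.8 in dried ginger (-1.02), 14.9 in fresh ginger (-0.80) and 15.6 in Sayeok-tang (-0.73). LCAT, which esterifies HDL cholesterol, was lower in Scutellariae Radix (-0.83), dried ginger (-0.59), Sayeok-tang (-0.46), fresh ginger (-0.39) and Pinelliae Tuber (-0.26). Hepatic lipase, LIPC, was lower in Scutellariae Radix (-1.04), Sayeok-tang (-0.59), dried ginger (-0.46) and fresh ginger (-0.34). ABCA1, which hands cholesterol to apolipoprotein A-I, was lower in Scutellariae Radix (-0.25), Sayeok-tang (-0.19) and fresh ginger (-0.17), and was not called in the other 3 extracts.

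Of 15 genes of lipoprotein receptors and uptake, all tested, dried ginger raised 9 and lowered 4 (list median 0.19), fresh ginger raised 8 and lowered 3 (0.15), Sayeok-tang raised 6 and lowered 3 (0.10) and Pinelliae Tuber raised 0 and lowered 4 (-0.06). VLDLR rose from 2.71 CPM to 9.57 in Scutellariae Radix (1.82), 8.16 in dried ginger (1.59) and 6.18 in fresh ginger (1.19). Scutellariae Radix raised 4 and lowered 6 of the 15 (-0.09). Of 8 tested lipolysis regulators, Scutellariae Radix raised 2 and lowered 5 (list median -0.29), Sayeok-tang raised 1 and lowered 4 (-0.14), fresh ginger raised 1 and lowered 2, and dried ginger raised 2 and lowered 2. Among them PLIN2, the coat protein of lipid droplets, rose from 126 CPM to 416 in fresh ginger (1.72) and 396 in dried ginger (1.65), and by 0.81 in both Sayeok-tang and Scutellariae Radix.

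Of 29 tested regulators of apolipoprotein genes, 14 fell and 2 rose in Sayeok-tang (list median -0.17), where 40.2% of all genes were called, and 15 fell and 8 rose in fresh ginger (-0.15; 47.9%). In dried ginger 13 fell and 5 rose (-0.16; 46.1%), and in Scutellariae Radix 17 fell and 5 rose (-0.20; 56.7%). In Bojungikgi-tang 5 fell and 0 rose (-0.04), and in Pinelliae Tuber 3 fell and 1 rose (-0.02). NR1H4, the bile acid receptor FXR, fell in 5 of the 6, from 74 CPM to 22.1 in fresh ginger (-1.74 ± 0.052, adjusted p = 1.1e-29), 24.8 in Scutellariae Radix (-1.58), 30.7 in Sayeok-tang (-1.27), 30.9 in dried ginger (-1.26) and 63.7 in Bojungikgi-tang (-0.22). HNF4A was lower in fresh ginger (-0.42), Scutellariae Radix (-0.20), Sayeok-tang (-0.15) and dried ginger (-0.14). CEBPA was lower in Scutellariae Radix (-1.25), fresh ginger (-0.83) and Sayeok-tang (-0.48). CEBPB rose by 1.33 in Scutellariae Radix and by 0.81 in dried ginger. CREB3L3, a liver factor that activates several apolipoprotein genes, rose from 9.39 to 18.1 CPM in dried ginger (0.95 ± 0.097, adjusted p = 3.5e-11) and to 13.5 in fresh ginger (0.53). Whether any of these factors acted on the 9 genes was not tested.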

How the data were processed

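The values deposited by the authors were expected counts per gene estimated with RSEM 1.3.3, after FastQC 0.11.9, Trim Galore 0.6.5 and alignment to GRCh38 with STAR 2.7.3a, per the submitters' processing notes. Libraries were made with a directional kit from 1 μg of RNA (integrity number over 7) and sequenced as 100 bp pairs, per the labels' protocols. Of the nonzero values 75.26% were whole, and all were rounded. RSEM shares reads that fit several genes, so counts of close relatives depend on that split. The table held 209 further columns, not used here. Libraries were placed in groups by their titles.

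Scaling was by TMM. The 58 libraries were fitted as 24 group means with edgeR 4.0.16 (limma 3.58.1, R 4.3.3), quasi-likelihood tests were run on 13945 genes that reached 1 CPM in 3 libraries or more, and p-values were adjusted within each comparison. Scaling factors ran from 0.878 to 1.04. The common dispersion corresponds to a coefficient of variation of 4.25%. The standard error is the fold change over the square root of its F value. The script was tested on simulated data. Replicates differed by more than sampling noise, with a chi-square per gene of at least 2.18. Alternatives were RLE scaling, DESeq2 1.42.0, no filter, only the compared groups, a replicate block, no libraries that stood apart, and each replicate left out. Shared replicate numbers were not treated as pairs.

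The members and lists were chosen with earlier results of these data known. Named genes were all 9 members, up to 3 called genes per list and high dose with the largest fold change and at least 5 CPM in the higher group, HNF4A, NR1H4 and ABCA1, and the 3 genes most like each member; APOC2 and APOA4, and values of list genes in further extracts, were added after their values were seen. Some genes that the rule named are not reported here. The exon length comparison was added after the data were seen and used genes with at least 10 CPM in the vehicle.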

Additional observations from a re-analysis of the deposited data

Results flagged for a closer look

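The effect of dose, as the log2 difference between the high and the low dose, differed between 2 extracts in 15 results by a direct test (edgeR's quasi-likelihood test, adjusted p under 0.05). Between Bojungikgi-tang and Sayeok-tang, the dose effect was higher in Bojungikgi-tang by 0.42 for APOA1, 0.51 for APOC3, 0.35 for APOH and 0.21 for MTTP, and lower there for APOM (-0.35). Sayeok-tang's own high dose lowered APOA1 by 0.47, and Bojungikgi-tang's value was -0.04. The APOM call was lost without any of 4 single libraries, where the difference was -0.30 to -0.33. The MTTP call was lost without the filter (0.19, adjusted p = 0.11) or any of 3 single libraries (0.19 in each fit).

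Between dried and fresh ginger the dose effect was higher in dried ginger by 0.39 for APOA2, 0.51 for APOC1 and 0.30 for APOE. The APOC1 difference held in every setting tried. The APOA2 difference fell to 0.27 without dried ginger high-dose replicate 1 (adjusted p = 0.2) or low-dose replicate 3 (0.098), and to 0.33 without fresh ginger high-dose replicate 3 (0.061); without the 3 libraries that stood apart it was 0.28 (0.053). The APOE call was lost without any of 5 single libraries, where the difference was 0.25 to 0.27.

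Between Pinelliae Tuber and Scutellariae Radix the dose effect was higher in Pinelliae Tuber by 0.95 for APOH, 0.90 for APOC3, 0.69 for MTTP, 0.44 for APOB, 0.43 for APOA1 and 0.20 for APOC1, and lower for APOM (-0.25). The APOC1 call was lost without any of 5 single libraries. The difference was 0.20 to 0.10 there, smallest without low-dose Scutellariae Radix replicate 3 (adjusted p = 0.26), and 0.09 without the 3 libraries that stood apart (adjusted p = 0.32). The APOM call was lost without any of 5 as well. The difference was -0.23 to -0.17 there, smallest without low-dose Pinelliae Tuber replicate 3 (adjusted p = 0.15).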

How the results depend on the processing

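Over 6 alternatives and each left-out library, 3294 values of a member in a comparison were recomputed. Of these, 3108 kept their side of the threshold (139 of them, called in neither fit, differed in sign), 107 lost the call, 79 gained one and 0 reversed a call. Of 107 member calls in 30 comparisons, 95 were kept under the 6 alternatives that leave out no single replicate, and 77 of them under every left-out replicate as well. Without the filter on low counts, members called became 5 in medium-dose Sayeok-tang, 1 in its low dose, 1 in low-dose Bojungikgi-tang, 1 in medium-dose dried ginger, 2 and 1 in medium- and low-dose Pinelliae Tuber, and 5 and 4 in medium- and low-dose Scutellariae Radix. In the high-against-low contrast they became 2 in Bojungikgi-tang and 3 in Pinelliae Tuber. With DESeq2 they were 1 in low-dose Pinelliae Tuber and 4 in medium-dose Scutellariae Radix. In fits of the compared groups only, they were 0 in low-dose dried ginger, 1 in medium- and 1 in low-dose Pinelliae Tuber, 1 in low-dose Scutellariae Radix, 0 and 3 in the high-against-low contrasts of Bojungikgi-tang and Pinelliae Tuber, and 1 for the dose effect of dried against fresh ginger. Without the 3 libraries that stood apart they were 0 in low-dose dried ginger, 4 in medium-dose Scutellariae Radix, and 2 and 3 in those high-against-low contrasts. Single calls gained in that fit and not given elsewhere were APOM in medium-dose Sayeok-tang (adjusted p = 0.028), APOC1 in high-dose Bojungikgi-tang (0.033) and in Bojungikgi-tang against Sayeok-tang (0.035), APOE in medium-dose Scutellariae Radix (0.037) and dried ginger high against low (0.041), APOH in Bojungikgi-tang (0.0088) and, with APOC3 (0.033), in Pinelliae Tuber (0.014) high against low, and APOA2 in the dose effect of Pinelliae Tuber against Scutellariae Radix (0.039). The number of all genes called moved as well. Without the filter it went from 8 to 159 in low-dose Sayeok-tang, from 0 to 145 in low-dose Bojungikgi-tang and from 202 to 397 in medium-dose dried ginger. It went from 40 to 304 and from 38 to 312 in medium- and low-dose Pinelliae Tuber. In the fit of the compared groups only, it went from 296 to 13 in low-dose dried ginger and from 1438 to 297 in low-dose Scutellariae Radix. The cause of these moves was not tested. Leaving out single libraries gave 0 to 2 members in medium-dose Sayeok-tang, 0 to 1 in high-dose Bojungikgi-tang, 2 to 4 in medium-dose and 0 to 2 in low-dose fresh ginger, 0 to 1 in low-dose dried ginger, 1 to 4 in high-dose and 0 to 1 in low-dose Pinelliae Tuber, 2 to 4 in medium-dose Scutellariae Radix, 0 in Bojungikgi-tang high against low, and 3 to 5 for the dose effect of the formulas. With single libraries left out, all genes called ran from 2 to 89 in low-dose Pinelliae Tuber (38 with every library). In low-dose dried ginger they ran from 32 to 542 (296 with every library). Of 432 mean levels under 2 other scalings, 38 moved by more than 1 SD.

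Replicate numbers were not treated as pairs. Over all comparisons the deviations of same-numbered libraries correlated between -0.157 and 0.206, and a library correlated best with its own number in 34 of 73 pairs. Between the high and low doses of Bojungikgi-tang, both gingers and Pinelliae Tuber, every library correlated best with its own number (0.024 to 0.206). In Scutellariae Radix none did, and in Sayeok-tang replicate 2 alone. Whether replicates of an extract were paired was not settled by these values. With the replicate block 0 member calls were lost and 3 gained, APOM in medium-dose Sayeok-tang (adjusted p = 0.049), APOB in high-dose Pinelliae Tuber (0.048) and APOB in fresh ginger high against low (0.045). Groups of 2 libraries and single libraries limit precision.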

Other observations

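Outside the 9 genes, 2 members of another apolipoprotein family rose in several extracts. APOL1 and APOL2 belong to the apolipoprotein L family, and APOL1 encodes the trypanosome-lytic factor of human serum. APOL1 averaged 35.2 CPM in the vehicle, 96.6 with high-dose fresh ginger (1.46 ± 0.074, SE, adjusted p = 2.3e-21 by edgeR's quasi-likelihood test) and 79.8 with Sayeok-tang (1.18 ± 0.074), and was lower in Scutellariae Radix, at 23.5 (-0.58 ± 0.083). APOL2 went from 26.1 CPM to 67.9 in fresh ginger (1.38 ± 0.063) and 52.4 in Sayeok-tang (1.01 ± 0.063), and was not called in Scutellariae Radix (0.10, adjusted p = 0.2). Both are close relatives in 1 gene family, so their counts depend on how shared reads were split. Dried ginger (0.51 and 0.53) and Pinelliae Tuber (0.37 and 0.34) also raised APOL1 and APOL2. Clusterin, CLU, a protein of HDL, was lower in dried ginger (-0.56), Scutellariae Radix (-0.35), fresh ginger (-0.34) and Sayeok-tang (-0.32).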
